A study of Mus musculus with 18 samples.

Results

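The translation initiation factor genes of mouse bone marrow macrophages were taken as all genes whose symbol starts with Eif1, Eif2, Eif3, Eif4, Eif5 or Eif6, leaving out the eIF2 kinase genes (Eif2ak) and the eIF4E-binding protein genes (Eif4ebp). The rule used names only and found 47 of the 16909 genes listed, and 46 of them were among the 12465 genes that passed a filter on low counts and were tested. The exception was Eif2s3y, a Y-linked copy of an eIF2 subunit gene, with at most 0.36 CPM (counts scaled to library size, defined below) in any library. Polyadenylated RNA was sequenced from 18 libraries in 4 groups, all of one cell type. Con (n = 3) was the mock group. LPS (n = 5) was the positive control for inflammation, lipopolysaccharide being a bacterial cell wall component sensed by macrophages. STSABs (n = 5) and UVABs (n = 5) were given hucMSC ABs, as the labels call them, induced with STS or with UV respectively, and both were described as anti-inflammatory treatments. The labels state neither strain, age, dose nor time, nor whether the AB groups also received LPS, nor that the libraries of a group came from separate cultures or animals, so a p-value here reflects how much the libraries of a group varied, and that variation may be technical only.

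Initiation factors bring the ribosome to the start codon of an mRNA. The factor eIF2 carries the initiator tRNA to the small ribosomal subunit and is recharged with GTP by eIF2B, the exchange factor that is blocked when eIF2 is phosphorylated under stress. The small subunit is loaded with eIF1, eIF1A, eIF3 and eIF5, and is drawn to the mRNA by eIF4F, which consists of the cap-binding protein eIF4E, the scaffold eIF4G and the helicase eIF4A. In macrophages this machinery is a point of control of inflammatory protein output, because mTORC1 and the MNK kinases act on eIF4E and its inhibitors, and because the kinase PKR, induced by interferon, phosphorylates eIF2.

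Total estimated counts were alike across libraries, from 17588357 to 18675283. The 47 genes took 0.936% ± 0.0216 (SD, n = 3) of all counts in Con, 0.582% ± 0.00937 (n = 5) in LPS, 0.528% ± 0.00492 (n = 5) with STSABs and 0.529% ± 0.00628 (n = 5) with UVABs. Levels are given here in CPM, the count over the library's effective size after scaling by the trimmed mean of M-values (TMM), and differences as log2 fold changes. The TMM factor averaged 1.51 in Con against 0.902 to 0.932 in the other groups, so the direction of small differences from Con depended on the scaling: the median log2 fold change of all genes in LPS against Con was -0.03 with TMM, -0.31 with upper-quartile scaling and -0.78 with library totals alone. The libraries STSABs 2 and UVABs 2 stood apart from the others of their groups on a principal component of all genes. Macrophage markers had a summed level of 9882 to 13770 CPM over all libraries (10 genes, none at 0). Lyz2 made up most of it (mean 8002 CPM in Con), and Cx3cr1 was low (mean 2.16 CPM in Con). By the test described below 4 of these 10 were higher and 5 lower in LPS against Con. Of all genes tested 40.0% were higher and 43.0% lower there. Csf1r was at a mean of 791 CPM in Con and 255 in LPS. The summed level of 10 neutrophil markers, mostly S100a9, Ngp and S100a8, was 1202 to 1500 CPM in Con and 1816 to 2529 in LPS. It was 3254 to 4722 with STSABs and 3188 to 4209 with UVABs, with none of the 10 at 0. In LPS against Con 6 of the 10 neutrophil genes were higher and 3 lower, beside the same 40.0% and 43.0% of all genes. Among the lower was Cxcr2 (mean 14.2 CPM in Con, 2.52 in LPS). The summed level of 8 dendritic cell genes, 1233 to 1389 CPM in Con and 3718 to 4289 elsewhere, moved mostly with Ccr7 (mean 142 CPM in Con, 2492 in LPS). Of the 6 dendritic cell genes tested 3 were higher and 2 lower in LPS against Con, beside the same shares of all genes. Cd209a was at a mean of 41.8 CPM in Con and 2.86 in LPS. The part of these lists in the results below was not tested, and fewer cells of a type cannot be told apart from less RNA per cell in bulk samples.

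In LPS against Con, Eif1a and Eif6 were higher, and most eIF3 subunit genes, 3 of the 5 eIF2B subunit genes and Eif4b were lower, under each of 4 scalings. Most genes of cap binding and scaffolding were higher with TMM, but none of them was past the threshold as higher with library totals alone. A gene was counted as higher or lower where edgeR's quasi-likelihood test gave a Benjamini-Hochberg adjusted p under 0.05 over all genes tested. By this rule, with TMM, 15 of 46 initiation factor genes rose (32.6%, against 40.0% of all genes tested) and 22 fell (47.8%, against 43.0%). With TMM neither share was thus far from that of all genes. With upper-quartile scaling 9 were higher and 30 lower, where 3754 of all 12465 genes tested were higher and 6665 lower. With library totals alone 2 were higher and 38 lower, where 2365 of all genes tested were higher and 8802 lower. Only Eif1a and Eif6 were higher, and 21 genes lower, under all 4 scalings tried. The changes were small beside those of other genes: the median absolute log2 fold change was 0.38 over the 46 genes and 0.76 over all genes tested. A rise of at least 1.5-fold was called for 7 genes (15.2%, against 26.9% of all genes) and a fall of that size for 7 (15.2%, against 31.4%).

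In both AB groups against LPS, most cap-binding and scaffold genes were lower. So were 4 of the 6 genes listed under start codon selection, of which Eif1ad was not past the threshold under every alternative. Among the 5 genes of the helicases and their cofactors, 2 were lower and 1 was higher. The eIF3 subunit genes split into a set that was higher and a set that was lower. In STSABs 12 of 46 genes rose (26.1%, against 28.4% of all genes) and 23 fell (50%, against 29.0%). In UVABs 12 rose (26.1%, against 28.6%) and 24 fell (52.2%, against 28.8%). The share that fell was thus above the share of all genes, and the share that rose was close to it. The median log2 fold change of the 46 genes was -0.17 with STSABs and -0.18 with UVABs, beside -0.01 and 0.00 for all genes. These comparisons did not hinge on the scaling, since 12 genes were higher and 21 lower in STSABs, and 12 higher and 20 lower in UVABs, under all 4 scalings. Falls of at least 1.5-fold were called for 7 genes in each AB group (15.2%, against 7.84% and 7.65% of all genes) and rises of that size for 2 (4.35%, against 11.8% in each). Both comparisons share the 5 LPS libraries, and their values are given side by side below. The neutrophil list moved with these comparisons, with 10 of its 10 genes higher in STSABs and 8 of 10 in UVABs. Of the 6 dendritic cell genes tested 4 were higher and 1 lower in each. Of the 10 macrophage genes 3 were higher and 5 lower in STSABs, and 3 were higher and 4 lower in UVABs.

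**Figure D1:**
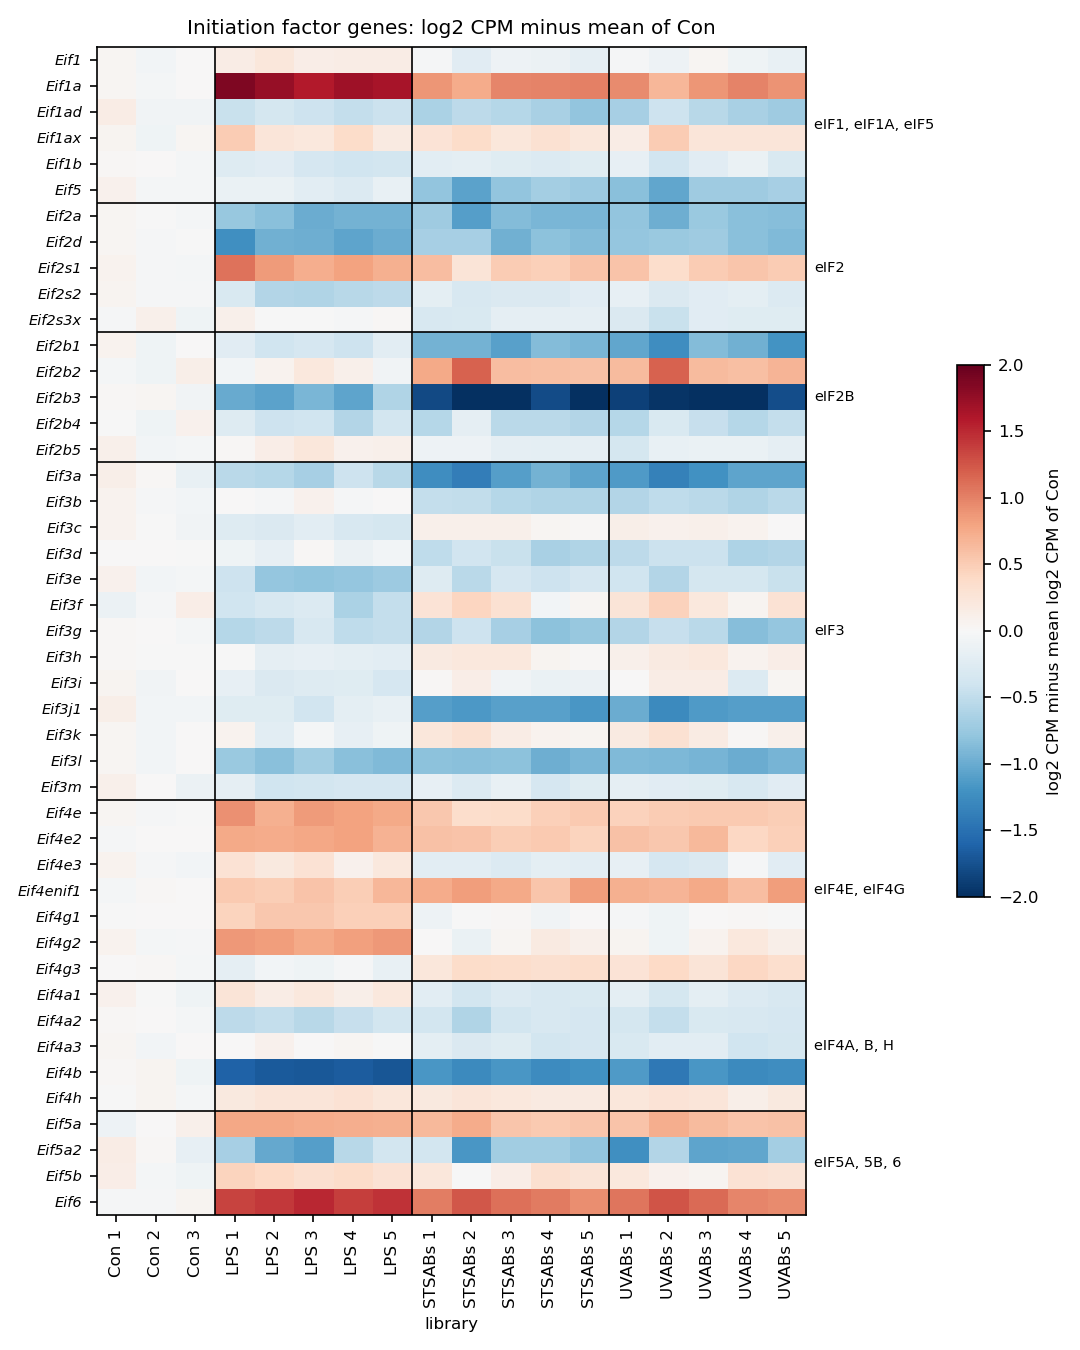
Each row is 1 of 45 tested initiation factor genes (Eif3j2, near 0, is left out), grouped by role, and each column is 1 of 18 libraries. Colour gives log2 CPM minus the mean log2 CPM of Con. Eif1a and Eif6 are red in every LPS, STSABs and UVABs library, Eif4b and Eif2b3 are blue in each, and the columns of STSABs and UVABs look alike.

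The start codon selection list held 6 genes, among them the less studied Eif1ad. In LPS against Con 3 rose and 3 fell with TMM, beside 40.0% and 43.0% of all genes tested. In each AB group against LPS 4 fell, 1 of them Eif1ad, and none rose. Of all genes 29.0% fell in STSABs and 28.8% in UVABs. Eif1a encodes a form of eIF1A, which with eIF1 holds the scanning ribosome open. Eif1a was at 55.5, 52.3 and 54.0 CPM in Con, at 197, 180.4, 162, 175 and 169 in LPS, at 99.6, 90.4, 106, 107 and 108 with STSABs and at 104, 85.2, 99.5, 108 and 100.5 with UVABs. All LPS libraries lay above all AB libraries, and these above all Con libraries. Its level rose by 1.71 (log2, SE 0.08, adjusted p = 4.82e-15) in LPS against Con, the largest rise of the 46 genes, and was higher under all 4 scalings (0.97 with library totals alone). It fell by 0.79 on the log2 scale in STSABs against LPS (SE 0.06, adjusted p = 1.26e-09) and by 0.83 in UVABs (SE 0.06, adjusted p = 6.40e-10). The X-linked copy Eif1ax showed smaller values. It was at 42.7 to 46.8 CPM in Con and 51.1 to 64.5 in LPS, a log2 fold change of 0.30 (SE 0.08) with TMM that became 0.03 with upper-quartile scaling and -0.44 with library totals alone, and it differed by -0.02 (SE 0.07) from LPS in each AB group. The ratio of Eif1a to Eif1ax counts, which no scaling affects, was 1.19 ± 0.0289 (SD, n = 3) in Con, 3.17 ± 0.158 (n = 5) in LPS, 1.87 ± 0.197 (n = 5) with STSABs and 1.83 ± 0.292 (n = 5) with UVABs. These ratios of counts are not corrected for gene length, so only their change between groups can be read, and no test was made on them.

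Eif5 encodes the protein that triggers GTP hydrolysis by eIF2 at the start codon. It was at 182, 166 and 166 CPM in Con, at 156, 155, 147, 141 and 154 in LPS, at 98.6, 81.8, 99.4, 107 and 103 with STSABs and at 95.6, 83.4, 104, 105 and 108 with UVABs. No AB library reached the lowest LPS library. Eif5 fell by 0.62 on the log2 scale in STSABs (SE 0.07, adjusted p = 1.43e-07) and by 0.60 in UVABs (SE 0.07, adjusted p = 2.30e-07) against LPS. Its log2 fold change in LPS against Con of -0.18 (SE 0.08, adjusted p = 0.0376) was past the threshold with TMM but not with DESeq2 size factors or the DESeq2 test (-0.16 in each), not with replicates 1 to 3 alone (-0.17), and not without Con 1 (-0.14), LPS 3 (-0.17) or LPS 4 (-0.16). Eif1 encodes the gatekeeper of start codon choice, and its counts were not whole numbers in any of the 18 libraries, so its reads may be shared with similar sequences and its level is uncertain. It was at 280.3, 261 and 273 CPM in Con, 300.3, 317, 297, 302 and 302 in LPS, 266, 233, 253, 251 and 240.2 with STSABs and 267, 253, 278, 256 and 246 with UVABs. The LPS libraries were the highest. Eif1 fell in STSABs (-0.29, SE 0.05, adjusted p = 1.36e-05) and UVABs (-0.23, SE 0.05, adjusted p = 2.23e-04) against LPS, and its rise in LPS against Con (0.16, SE 0.05, adjusted p = 0.00725) turned to -0.12 with upper-quartile scaling and -0.58 with library totals alone. Of the less studied relatives, Eif1b (-0.31) and Eif1ad (-0.43) fell in LPS against Con under all 4 scalings. Eif1ad also fell against LPS in STSABs (-0.21) and UVABs (-0.17). With replicates 1 to 3 alone neither was past the threshold (-0.17 and -0.13), and the value in UVABs was not past the threshold without LPS 2 (-0.15), LPS 3 (-0.17), UVABs 1 (-0.16), UVABs 4 (-0.16) or UVABs 5 (-0.15), nor with upper-quartile scaling (-0.16) or library totals (-0.13).

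**Figure D2:**
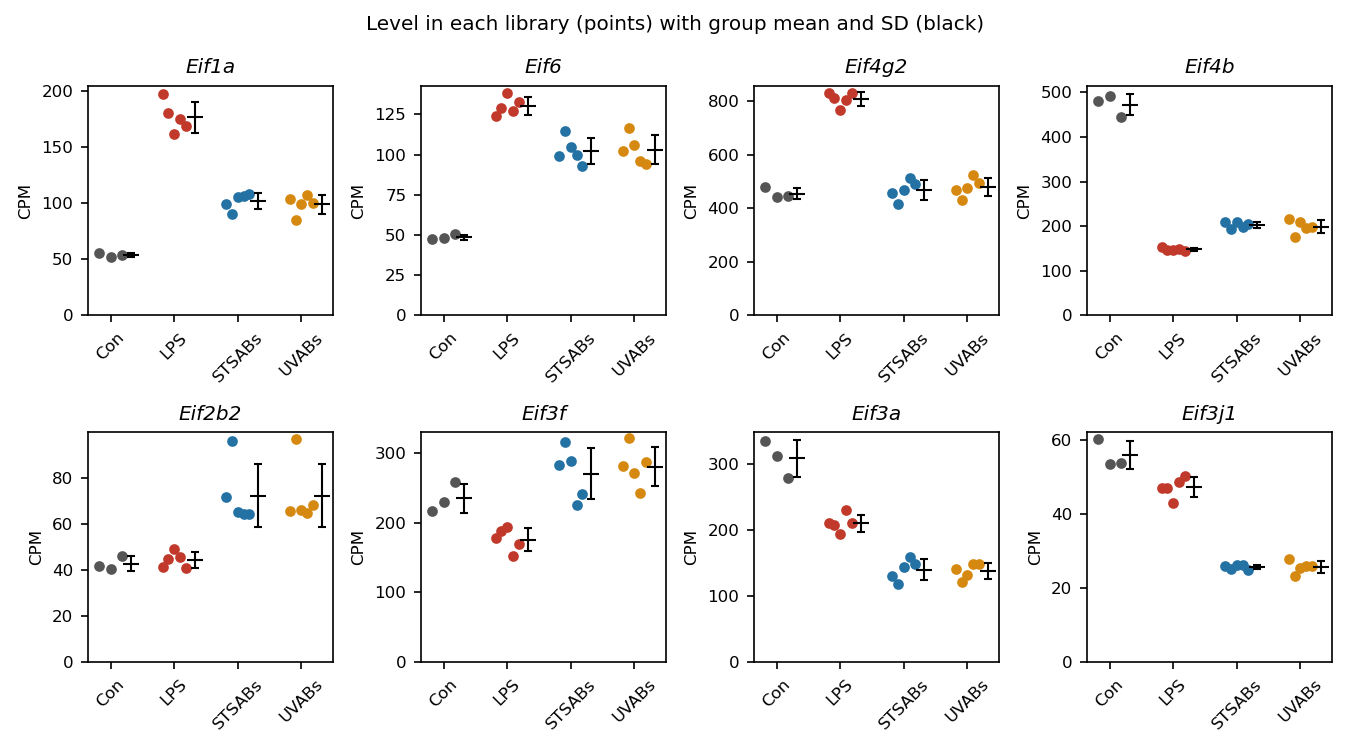
Each panel shows the CPM of 1 gene in each library (points) by group, with the group mean and SD in black, and every axis starts at 0. Eif1a, Eif6 and Eif4g2 peak in LPS, Eif4b is highest in Con, Eif2b2 and Eif3f are highest in the AB groups, and Eif3a and Eif3j1 are lowest there. In Eif2b2 the libraries STSABs 2 (96.2 CPM) and UVABs 2 (96.8 CPM) lie above the rest of their groups.

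The subunits of eIF2 itself moved apart. Eif2s1 encodes the alpha subunit, the one that stress kinases phosphorylate. It was at 60.3, 56.5 and 56.2 CPM in Con, 122, 103, 95.8, 100.2 and 94.6 in LPS, 88.3, 69.0, 81.7, 80.1 and 85.2 with STSABs and 85.9, 73.7, 81.6, 84.7 and 82.2 with UVABs. The groups Con, LPS and the AB libraries did not overlap, with LPS highest. Eif2s1 rose by 0.84 (log2, SE 0.08, adjusted p = 3.04e-09) in LPS against Con with TMM and by 0.56 with upper-quartile scaling, but its value with library totals alone was 0.09 and not past the threshold. It fell by 0.35 on the log2 scale in STSABs (SE 0.07, adjusted p = 1.82e-04) and by 0.34 in UVABs (SE 0.07, adjusted p = 2.75e-04) against LPS. Eif2s2, the gene of the beta subunit, took the opposite course, at 144 to 153 CPM in Con, 97.2 to 119.6 in LPS, 118 to 129 with STSABs and 121 to 131 with UVABs. It fell in LPS against Con under all 4 scalings (-0.51 with TMM) and rose against LPS in STSABs (0.25) and UVABs (0.28), although LPS 1, at 119.6 CPM, lay above the lowest STSABs library. Eif2s3x, the X-linked gene of the gamma subunit, showed a log2 fold change of 0.02 (SE 0.06, adjusted p = 0.794) in LPS against Con, which turned to -0.26 with upper-quartile scaling and -0.73 with library totals alone. It was at 158 to 175 CPM in STSABs and 145 to 169 in UVABs, below the 194 to 212 of LPS, and fell by 0.25 (SE 0.05, adjusted p = 2.74e-04) and 0.31 (SE 0.05, adjusted p = 2.77e-05) on the log2 scale.

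Eif2a and Eif2d encode proteins that can deliver initiator tRNA without eIF2, and both fell in LPS against Con under all 4 scalings. Eif2d was at 28.9 to 30.4 CPM in Con and 12.6 to 15.1 in LPS, and fell by 1.04 on the log2 scale (SE 0.07, adjusted p = 8.21e-12). It stood at 15.2 to 18.6 CPM in STSABs and 16.0 to 17.9 in UVABs, and rose by 0.25 against LPS in each (SE 0.07 in each, adjusted p = 0.00385 and 0.00325). Eif2a was at 53.8 to 56.9 CPM in Con and 27.6 to 32.7 in LPS, a fall of 0.89 (SE 0.07, adjusted p = 9.98e-11). Its AB libraries, at 25.7 to 33.7 CPM, overlapped those of LPS, and neither difference passed the test (0.00 and 0.06).

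Among the 5 subunit genes of eIF2B, 3 fell and none rose in LPS against Con, while in each AB group against LPS 1 rose and 3 fell. Of all genes tested 40.0% rose and 43.0% fell in LPS against Con. Against LPS 28.4% of all genes rose and 29.0% fell in STSABs, and 28.6% and 28.8% in UVABs. Eif2b2 encodes the beta subunit, part of the regulatory core that senses phosphorylated eIF2. It was at 41.6, 40.2 and 46.2 CPM in Con, 41.2, 44.8, 49.3, 45.7 and 40.7 in LPS, 71.7, 96.2, 65.2, 64.5 and 64.1 with STSABs and 65.7, 96.8, 66.0, 64.5 and 68.3 with UVABs. Every AB library lay above every Con and LPS library. Eif2b2 rose by 0.71 (log2, SE 0.11, adjusted p = 1.90e-05) in STSABs and by 0.70 (SE 0.11, adjusted p = 1.96e-05) in UVABs against LPS, the largest rises of the 46 genes. Without STSABs 2 and UVABs 2 the values were 0.58 in each. Eif2b1, the gene of the alpha subunit in the same core, went the other way, at 20.8, 23.2 and 22.1 CPM in Con, 16.4 to 19.0 in LPS, 10.3 to 12.0 with STSABs and 9.34 to 12.1 with UVABs. It fell against LPS by 0.63 (SE 0.07, adjusted p = 2.53e-07) and 0.73 (SE 0.07, adjusted p = 3.34e-08) on the log2 scale, and its fall in LPS against Con (-0.32) was called under all 4 scalings.

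Eif2b3 encodes the gamma subunit, a partner of the catalytic epsilon subunit. Its level was highest in Con and lowest in the AB groups, at 9.05, 9.10 and 8.50 CPM in Con, 4.43, 4.24, 4.72, 4.26 and 5.83 in LPS, 2.55, 2.19, 2.22, 2.57 and 2.17 with STSABs and 2.43, 2.28, 1.78, 1.98 and 2.58 with UVABs. Con, LPS and AB libraries did not overlap. The AB values rest on 30 to 44 counts a library. The log2 fold change was -0.92 (SE 0.11, adjusted p = 4.65e-08) in LPS against Con, and under all 4 scalings the gene was lower. Against LPS it was -1.001 (SE 0.12) in STSABs and -1.09 (SE 0.12) in UVABs. Eif2b5, the gene of the catalytic subunit, was at 35.0 to 39.0 CPM in Con and 37.0 to 42.8 in LPS, and its value of 0.11 (SE 0.06, adjusted p = 0.0890), past the threshold as higher without Con 1 (0.16) and by the DESeq2 test (0.13), turned to -0.17 with upper-quartile scaling and -0.63 with library totals alone. It fell in STSABs (-0.26, SE 0.05, adjusted p = 2.95e-04) and UVABs (-0.30, SE 0.05, adjusted p = 6.12e-05) against LPS, where it stood at 31.9 to 34.1 and 28.6 to 33.2 CPM. Eif2b4 fell in LPS against Con (-0.40) and differed by -0.07 and -0.08 from LPS in the AB groups, short of the threshold.

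The 14 genes of eIF3, the largest initiation factor and the scaffold on which the other factors meet the small subunit, were lower or not past the threshold in LPS against Con, with 10 that fell and none that rose. With upper-quartile scaling and with library totals alone Eif3b, Eif3d and Eif3k were also past the threshold as lower, and Eif3h was not past it without Con 1 (-0.14), with the replicate block (-0.11) or with replicates 1 to 3 alone (-0.12). Among all genes tested 40.0% rose and 43.0% fell in LPS against Con. Against LPS the subunit genes split, and in STSABs 6 rose and 4 fell, and in UVABs 6 rose and 5 fell. The shares of all genes there were 28.4% higher and 29.0% lower in STSABs, and 28.6% and 28.8% in UVABs. In both comparisons Eif3c, Eif3e, Eif3f, Eif3h, Eif3i and Eif3k rose, and Eif3a, Eif3b, Eif3d and Eif3j1 fell. Eif3l was the additional fall in UVABs (-0.13, beside -0.08 in STSABs, the difference of the AB groups being short of the threshold), and it was not past the threshold without LPS 3 (-0.11) or UVABs 4 (-0.12), with library totals (-0.09) or with replicates 1 to 3 alone (-0.14). Eif3g and Eif3m were not past the threshold against LPS with all libraries and TMM. Among the alternatives, Eif3g was past it without STSABs 2 (-0.23 in STSABs, -0.16 in UVABs), without UVABs 2 (-0.21 in UVABs) and with the replicate block (-0.17 in each). Eif3m was past it in STSABs without LPS 1 (0.12) and with library totals (0.14).

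**Figure D3:**
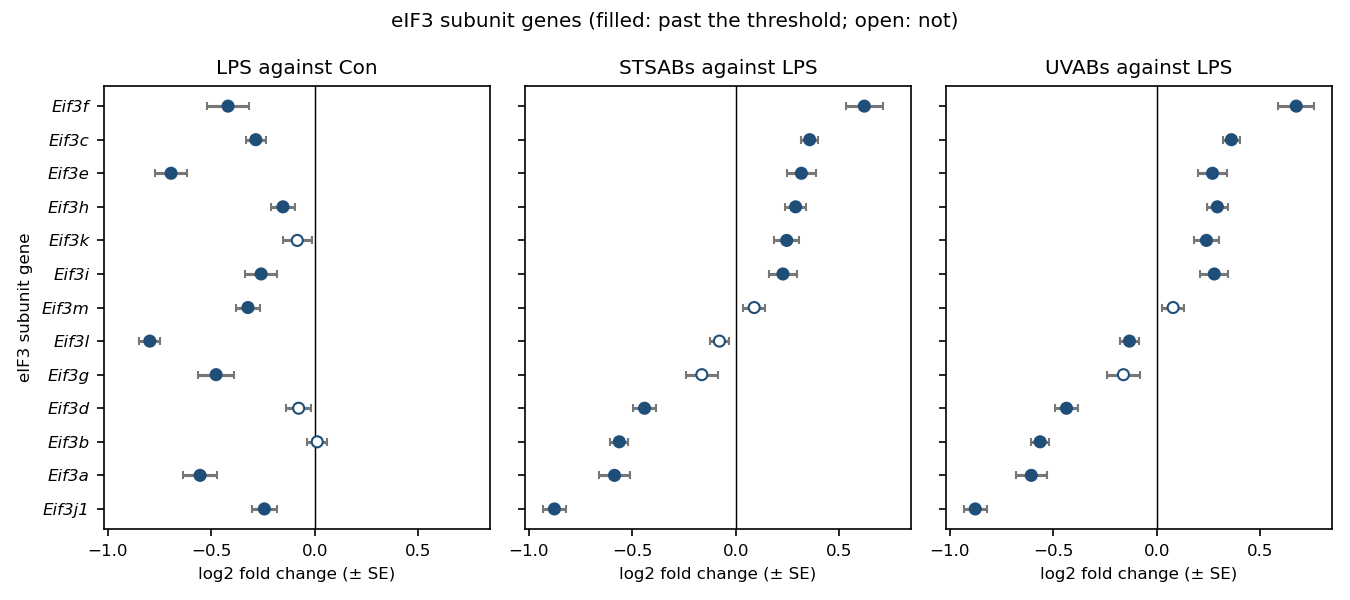
The 3 panels show, for 13 eIF3 subunit genes, the log2 fold change with its SE in LPS against Con, STSABs against LPS and UVABs against LPS, with filled points past the threshold of adjusted p under 0.05 and open points short of it. Against LPS, 6 genes from Eif3f (0.62 and 0.67) to Eif3i (0.23 and 0.28) lie to the right of 0, and Eif3j1, Eif3a, Eif3b and Eif3d lie to the left.

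Eif3a encodes the largest subunit, on which the complex is built together with eIF3c. Its level was 334, 312 and 278 CPM in Con, 211, 207, 193, 229.6 and 209.6 in LPS, 129.8, 118, 143, 159 and 149 with STSABs and 140.3, 121, 132, 148 and 148 with UVABs. The 3 levels did not overlap, and Con was highest. Eif3a fell by 0.55 (log2 scale, SE 0.08, adjusted p = 2.88e-06) in LPS against Con, with a fall under all 4 scalings, and again by 0.59 (SE 0.08, adjusted p = 9.57e-07) in STSABs and 0.61 (SE 0.08, adjusted p = 6.14e-07) in UVABs against LPS. Eif3c did not follow its partner. It was at 280.1, 265 and 252 CPM in Con, 222, 218, 229, 213 and 208 in LPS, 286, 285, 285, 273 and 269.9 with STSABs and 288, 283, 285, 278 and 266 with UVABs. LPS alone was low, and the AB libraries overlapped those of Con. Eif3c fell by 0.28 on the log2 scale in LPS against Con (SE 0.05, adjusted p = 1.17e-05, lower under all 4 scalings) and rose by 0.36 in each AB group (SE 0.04, adjusted p = 2.98e-07 and 2.74e-07).

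Eif3f encodes a subunit of the outer module of the complex and showed the largest rise of the family against LPS. It was at 217, 229.6 and 258 CPM in Con, 177, 187, 193, 152 and 169 in LPS, 282, 316, 288, 225 and 241 with STSABs and 281, 321, 270.3, 242 and 287 with UVABs. No LPS library reached any library of the other groups. Eif3f rose by 0.62 (log2, SE 0.09, adjusted p = 3.52e-06) in STSABs and by 0.67 (SE 0.09, adjusted p = 1.27e-06) in UVABs against LPS, and it was lower in LPS than in Con by 0.42 (SE 0.10) on the log2 scale, under all 4 scalings. Eif3e, the gene of a neighbouring subunit also known as Int6, was at 203, 184 and 185 CPM in Con, 142, 111, 109, 112 and 115 in LPS, 159, 131, 151, 143 and 151 with STSABs and 144, 128, 149.5, 149.5 and 139.9 with UVABs. LPS 1 overlapped the AB libraries and the other LPS libraries lay below them. Eif3e fell by 0.69 in LPS against Con (log2 scale, SE 0.08, adjusted p = 3.04e-08, lower under all 4 scalings) and rose by 0.32 (SE 0.07, adjusted p = 4.97e-04) in STSABs and 0.27 (SE 0.07, adjusted p = 0.00222) in UVABs. With replicates 1 to 3 alone the value in UVABs was 0.22 and not past the threshold.

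Eif3j1 encodes the loosely bound subunit that acts at the decoding centre. It was at 60.3, 53.7 and 53.9 CPM in Con, 47.1, 47.1, 43.1, 48.9 and 50.3 in LPS, 26.1, 25.3, 26.2, 26.2 and 25.0 with STSABs and 27.9, 23.2, 25.6, 25.9 and 26.0 with UVABs. The AB libraries lay far below the others. Eif3j1 fell by 0.88 on the log2 scale in each AB group against LPS (SE 0.06 in each, adjusted p = 4.00e-11 and 4.25e-11). Its counts were not whole in 12 of 18 libraries, as were those of its near copy Eif3j2, which never exceeded 0.838 CPM, so the split of reads between the copies is uncertain. The subunit gene Eif3b was at 88.3 to 96.5 CPM in both AB groups and 132 to 143 in LPS. Eif3d, whose protein can bind the cap of certain mRNAs, was at 71.4 to 85.9 in both AB groups and 99.97 to 114 in LPS. Eif3b and Eif3d fell by 0.56 and 0.44 on the log2 scale in each AB group against LPS. Relative to the mean log2 level of 13 subunit genes in the same library, a measure that no scaling affects, Eif3f stood at 0.67 ± 0.13 (SD, n = 5) in LPS and 1.33 ± 0.14 with STSABs and 1.38 ± 0.12 with UVABs, whereas Eif3a stood at 0.93 ± 0.11 in LPS and 0.38 ± 0.22 and 0.36 ± 0.16. The ratio of Eif3f to Eif3a counts, a pair chosen after its values were seen, was 0.770 ± 0.141 (n = 3) in Con, 0.843 ± 0.126 (n = 5) in LPS, 1.98 ± 0.496 with STSABs and 2.06 ± 0.371 with UVABs.

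The mRNAs of many translation factors begin with a run of pyrimidines, by which mTORC1 and LARP1 control their translation, so the bases around the annotated start of transcription of eIF3 subunit genes are shown for a subunit gene that rose against LPS (Eif3f), another that rose (Eif3c), one that fell (Eif3a) and Eif3l. The sequences are from RefSeq on build GRCm38.p6, 15 bases before the start and 15 from the start on, and capitals mark every run of at least 8 pyrimidines.
Eif3f, chr7:108934400-108934429, plus strand: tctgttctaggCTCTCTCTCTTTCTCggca
Eif3l, chr15:79075208-79075237, plus strand: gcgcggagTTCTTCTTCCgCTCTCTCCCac
Eif3c, chr7:126566352-126566381, minus strand: ctcacctgctcagagggactcggcagctta
Eif3a, chr19:60790679-60790708, minus strand: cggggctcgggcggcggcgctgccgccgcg
A run of 15 pyrimidines was found in Eif3f and runs of 10 and 9 in Eif3l, and the longest in Eif3c and in Eif3a had 3. Of the initiation factor genes 38 had a RefSeq promoter entry, and 8 of these (21.1%) held such a run, beside 13.9% of all 27025 genes with an entry. The latter were not limited to the genes tested here, and the difference in share was not tested. The genes with a run were Eif2b2, Eif2b5, Eif2s3x, Eif2s3y, Eif3f, Eif3l, Eif4e and Eif4enif1, which include genes that rose and genes that fell against LPS. A run anywhere in the window was counted, so it need not begin the mRNA. In Eif4e it ends before the start, and in Eif2b2 and Eif2s3y it begins after the start. In Eif4enif1, which has several entries, no run covers the start. The 9 genes Eif1a, Eif2b3, Eif3e, Eif3h, Eif3i, Eif3j2, Eif4e3, Eif4g2 and Eif6 had no entry.

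Of the 7 genes of cap binding and scaffolding, 6 rose and none fell in LPS against Con with TMM, but with upper-quartile scaling Eif4e3 had a value of -0.06, and with library totals alone Eif4e3 (-0.53), Eif4g1 (-0.25) and Eif4enif1 (-0.19) were lower. In each AB group against LPS 5 fell and 2 rose. Of all genes tested 40.0% rose and 43.0% fell in LPS against Con with TMM. Against LPS 28.4% of all genes rose and 29.0% fell in STSABs, and 28.6% and 28.8% in UVABs. Eif4e encodes the protein that binds the mRNA cap. It was at 45.3, 43.6 and 44.1 CPM in Con, 83.6, 72.5, 79.8, 77.6 and 74.9 in LPS, 64.5, 56.8, 57.0, 61.9 and 63.4 with STSABs and 61.1, 63.1, 63.7, 63.9 and 62.4 with UVABs. The AB libraries lay between Con and LPS without overlap. Eif4e rose by 0.81 (log2, SE 0.06, adjusted p = 9.51e-12) in LPS against Con with TMM and had a value of 0.06 with library totals alone, not past the threshold. It fell by 0.35 on the log2 scale in STSABs (SE 0.05, adjusted p = 2.00e-06) and by 0.31 in UVABs (SE 0.05, adjusted p = 1.38e-05) against LPS. Its relative Eif4e2, whose protein can repress translation at the cap, moved with it, at 58.9 to 60.1 CPM in Con, 96.6 to 104 in LPS, 81.1 to 89.7 with STSABs and 79.3 to 93.8 with UVABs. The ratio of Eif4e to Eif4e2 counts was accordingly similar in all groups, from 0.708 ± 0.0530 (SD, n = 5) in STSABs to 0.771 ± 0.0412 (n = 5) in LPS. Eif4e3, an atypical cap-binding relative, was at 23.8 to 26.0 CPM in Con, 26.1 to 30.1 in LPS, 20.4 to 21.5 with STSABs and 19.5 to 24.3 with UVABs. It fell in STSABs (-0.44, SE 0.06, adjusted p = 2.76e-06) and UVABs (-0.42, SE 0.06, adjusted p = 5.14e-06) against LPS, while its rise in LPS against Con (0.21, SE 0.07, adjusted p = 0.00590) held with TMM and DESeq2 size factors and turned with the other scalings as given above.

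The scaffold genes differed in course. Eif4g1 encodes the main eIF4G, which joins eIF4E, eIF4A and eIF3. It was at 234, 237 and 237 CPM in Con, 320.2, 341, 344, 328 and 329 in LPS, 221, 234, 239.9, 224 and 236 with STSABs and 231, 222, 238, 239 and 234 with UVABs. Only the LPS libraries stood apart, and the AB libraries overlapped those of Con. Eif4g1 fell by 0.52 (log2 scale, SE 0.04, adjusted p = 4.02e-10) in STSABs and by 0.51 (SE 0.04, adjusted p = 5.76e-10) in UVABs against LPS, and its rise in LPS against Con of 0.49 (SE 0.05, adjusted p = 1.41e-09) with TMM was -0.25 with library totals alone. Eif4g2 encodes a scaffold that does not bind eIF4E and serves initiation without it. It was at 479, 441 and 447 CPM in Con, 833, 812, 767, 807 and 831 in LPS, 457, 416, 469, 515 and 490.4 with STSABs and 471, 431, 477, 526 and 494 with UVABs. Again the LPS libraries alone were high. Eif4g2 fell by 0.79 (SE 0.06, adjusted p = 2.59e-10) and 0.76 (SE 0.06, adjusted p = 4.98e-10) on the log2 scale in STSABs and UVABs against LPS, and in LPS against Con its value was 0.83 (SE 0.07, adjusted p = 1.46e-10) with TMM and 0.08, not past the threshold, with library totals alone.

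Eif4g3, a close relative of Eif4g1, was the exception among the scaffolds. It was at 99.5, 100.3 and 95.8 CPM in Con, 86.9, 94.5, 92.6, 97.3 and 88.9 in LPS, 116, 128, 125, 123 and 126 with STSABs and 119, 129, 118, 131 and 124 with UVABs. The AB libraries were the highest. Eif4g3 rose by 0.42 (log2, SE 0.05, adjusted p = 7.78e-08) in STSABs and by 0.43 (SE 0.05, adjusted p = 6.37e-08) in UVABs against LPS, while its value in LPS against Con was -0.10 (SE 0.05, adjusted p = 0.0849), past the threshold with upper-quartile scaling (-0.38), with library totals alone (-0.84), with the replicate block (-0.11) and without LPS 4 (-0.12). The ratio of Eif4g1 to Eif4g3 counts was 2.40 ± 0.0692 (SD, n = 3) in Con, 3.62 ± 0.144 (n = 5) in LPS, 1.87 ± 0.0412 with STSABs and 1.88 ± 0.117 with UVABs, and that of Eif4g2 to Eif4g3 was 4.63 ± 0.214, 8.82 ± 0.610, 3.81 ± 0.347 and 3.87 ± 0.300. In both ratios the LPS libraries were highest and the AB libraries lowest. Eif4enif1, the gene of the protein that carries eIF4E into the nucleus, rose against LPS in STSABs (0.20) and UVABs (0.17), the latter not without UVABs 5 (0.14).

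The helicase eIF4A unwinds the mRNA leader and is stimulated by eIF4B and eIF4H. Eif4b was at 480.0, 492 and 446 CPM in Con, 153, 147, 146, 148 and 144 in LPS, 209.8, 195, 209.7, 197 and 204 with STSABs and 216, 176, 210.1, 196 and 199 with UVABs. Con lay far above, and the AB libraries lay above LPS without overlap. Eif4b fell by 1.68 on the log2 scale (SE 0.06, adjusted p = 1.57e-17) in LPS against Con, the largest fall of the 46 genes, and from 1.66 to 2.42 under the other scalings. It rose by 0.46 (SE 0.05, adjusted p = 1.21e-07) in STSABs and 0.43 (SE 0.05, adjusted p = 3.08e-07) in UVABs against LPS. Eif4h, the gene of the other cofactor, differed by -0.04 and -0.02 from LPS in the AB groups, not past the threshold, and its value of 0.24 in LPS against Con turned to -0.04 and -0.51 with upper-quartile scaling and library totals.

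Eif4a1 and Eif4a2 encode near-identical helicases, and their values went apart. Eif4a1 was at 637, 598 and 569 CPM in Con, 715, 667, 694, 654 and 696 in LPS, 519, 463, 494, 483 and 487 with STSABs and 524, 472, 522, 496 and 483 with UVABs. The AB libraries were the lowest. Eif4a1 fell by 0.49 (log2 scale, SE 0.05, adjusted p = 1.49e-08) in STSABs and 0.46 (SE 0.05, adjusted p = 3.83e-08) in UVABs against LPS, and its rise in LPS against Con (0.19, SE 0.05, adjusted p = 0.00285) turned to -0.09 with upper-quartile scaling and -0.56 with library totals alone. Eif4a2 was at 169, 166 and 162 CPM in Con, 115, 119, 112, 121 and 129 in LPS, 129, 109, 128, 133 and 131 with STSABs and 129, 119, 134, 133 and 131 with UVABs. Con was highest and the other groups overlapped. Eif4a2 fell by 0.47 on the log2 scale in LPS against Con (SE 0.06, adjusted p = 2.27e-07, lower under all 4 scalings), and its differences from LPS of 0.08 (SE 0.05, adjusted p = 0.227) in STSABs and 0.12 (SE 0.05, adjusted p = 0.0706) in UVABs were not past the threshold, though among the alternatives the value was past it in STSABs without STSABs 2 (0.13), and in UVABs without UVABs 2 (0.14), LPS 5 (0.14) or STSABs 2 (0.11), or with upper-quartile scaling (0.12) or library totals (0.16). The ratio of Eif4a1 to Eif4a2 counts was 3.63 ± 0.131 (SD, n = 3) in Con, 5.76 ± 0.401 (n = 5) in LPS, 3.90 ± 0.245 with STSABs and 3.87 ± 0.152 with UVABs, so that LPS stood apart from the rest. Eif4a3, the helicase of the exon junction complex, fell in STSABs (-0.31) and UVABs (-0.32) against LPS and showed 0.03 in LPS against Con, which was -0.25 and -0.72 with upper-quartile scaling and library totals.

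The 3 genes of the cap-binding complex Eif4e, Eif4g1 and Eif4a1, which were lower in both AB groups than in LPS, each had a CACGTG motif, the E-box bound by MYC among others, in the promoter window from 250 bases before to 50 bases after a RefSeq start (GRCm38.p6). The motif reads the same on both strands and is in capitals in the 30 bases shown. Of the few features searched here, it is the one that all 3 of these genes held.
Eif4e, chr3:138527192-138527221, plus strand: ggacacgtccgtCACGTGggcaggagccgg
Eif4g1, chr16:20672661-20672690, plus strand: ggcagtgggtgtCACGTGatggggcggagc
Eif4a1, chr11:69672595-69672624, minus strand: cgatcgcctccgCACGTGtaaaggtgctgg
The motif lies 64 bases before the start in Eif4e, 54 before it in Eif4g1 and 189 before it in Eif4a1, and Eif4e and Eif4g1 each hold it once more in the same window. It was found in 10 of the 38 initiation factor genes with an entry (26.3%), beside 8.09% of all genes with an entry. The latter were not limited to the genes tested here, and the difference in share was not tested. The other 7 were Eif1b, Eif3a, Eif3f, Eif3k, Eif4h, Eif5a and Eif5a2, which include genes that rose, genes that fell and genes that did not pass the test against LPS. Eif4e2 and Eif4a3, which also had an entry and fell in both AB groups against LPS, did not hold the motif. The motif TGATGNAA of the stress factors ATF4 and CHOP, searched on both strands, was found in 1 of 38 (2.63%, Eif2s3x), beside 4.51% of all genes. A match describes these letters only and says nothing of binding in these cells.

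Of the 4 genes of the late steps, 3 rose and 1 fell in LPS against Con with TMM, and in each AB group against LPS 3 fell. Among all genes tested 40.0% rose and 43.0% fell in LPS against Con, and 29.0% fell in STSABs and 28.8% in UVABs against LPS. Eif6 encodes the factor that keeps the large ribosomal subunit from joining too early and that is needed for its assembly. It was at 47.7, 47.9 and 50.5 CPM in Con, 124, 129, 138, 127 and 133 in LPS, 99.4, 115, 105, 99.7 and 93.1 with STSABs and 102, 117, 106, 96.2 and 94.2 with UVABs. The 3 levels did not overlap, with LPS highest and Con lowest. Eif6 rose by 1.42 (log2, SE 0.07, adjusted p = 3.08e-14) in LPS against Con, and was higher under all 4 scalings (0.67 with library totals alone). It fell by 0.35 on the log2 scale in STSABs (SE 0.06, adjusted p = 3.54e-05) and by 0.34 in UVABs (SE 0.06, adjusted p = 5.17e-05) against LPS.

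Eif5a encodes the hypusine-bearing factor that helps ribosomes through difficult sequences. It was at 299, 323 and 345 CPM in Con, 550.0, 549, 539, 534 and 528 in LPS, 507, 537, 474, 465 and 470.5 with STSABs and 479.9, 531, 501, 475 and 483 with UVABs. Con was lowest, and STSABs 2 and UVABs 2 reached into the LPS range. Eif5a rose by 0.74 (log2, SE 0.06, adjusted p = 8.35e-11) in LPS against Con with TMM, and its value with library totals alone was -0.00086. Its differences from LPS were small, -0.14 (SE 0.05, adjusted p = 0.0216) in STSABs and -0.13 (SE 0.05, adjusted p = 0.0316) in UVABs. With library totals (-0.09 in each) and with replicates 1 to 3 alone (-0.10 and -0.11) neither was past the threshold, and in UVABs the value was not past it with upper-quartile scaling (-0.12). They were also not past the threshold in STSABs without STSABs 3 (-0.13), STSABs 4 (-0.12) or STSABs 5 (-0.12), nor in UVABs without LPS 1, LPS 2, UVABs 1 or UVABs 5 (-0.12 each) or UVABs 4 (-0.11). Eif5b, the gene of the GTPase that joins the subunits, was at 67.0 to 77.8 CPM in Con, 87.3 to 96.4 in LPS, 70.9 to 88.5 with STSABs and 74.1 to 87.0 with UVABs. Its value in LPS against Con was 0.36 with TMM, 0.08 with upper-quartile scaling and -0.38 with library totals. It fell against LPS by 0.17 on the log2 scale in STSABs and 0.18 in UVABs, in STSABs not without LPS 1 (-0.15), STSABs 2 (-0.13) or STSABs 3 (-0.16). With library totals neither was past the threshold (-0.13 and -0.14). Eif5a2, a low-level relative of Eif5a at 1.70 to 4.38 CPM over all libraries, fell in LPS against Con (-0.72).

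**Figure D4:**
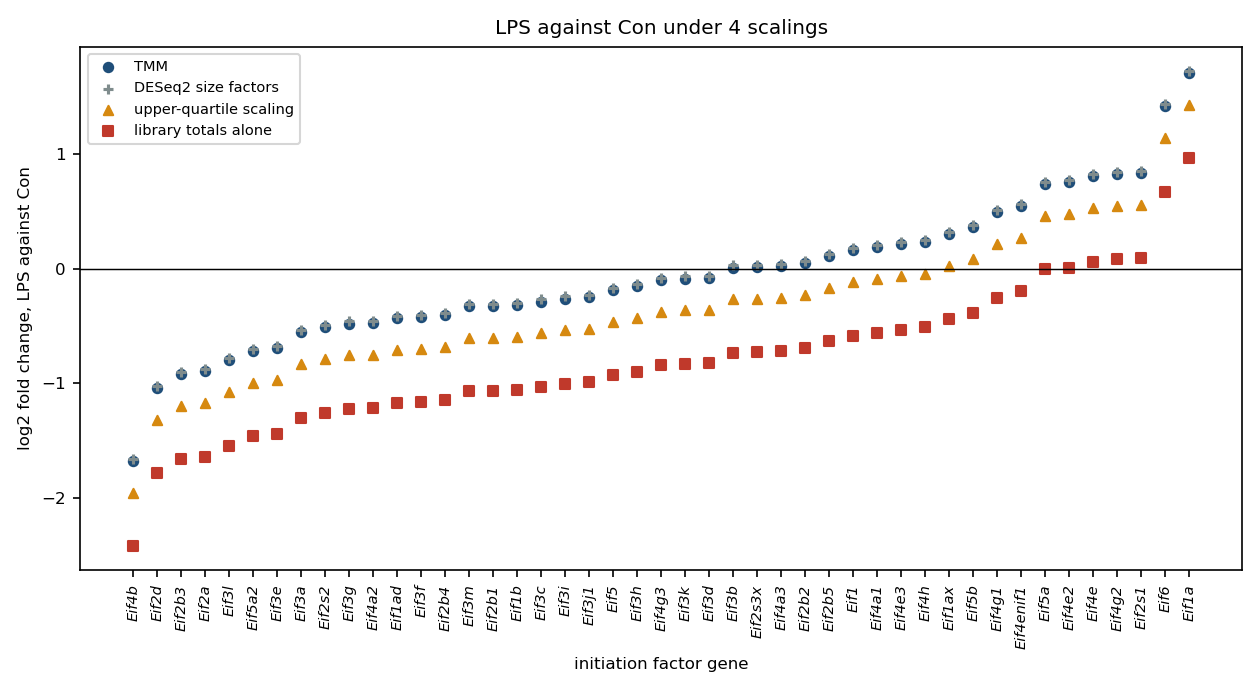
For 45 tested initiation factor genes in order of their log2 fold change in LPS against Con, the plot gives that value under TMM, DESeq2 size factors, upper-quartile scaling and library totals alone. The order of the genes is kept. Against TMM the whole set lies slightly higher with DESeq2 size factors and lower with upper-quartile scaling and library totals, so that with library totals only Eif1a (0.97) and Eif6 (0.67) were past the threshold as higher.

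No difference between the AB groups was detected in these genes. By edgeR's quasi-likelihood test 0 of 46 genes passed the adjusted threshold in UVABs against STSABs (0% of all 12465 genes tested). Of the 46, 0 had an unadjusted p under 0.05, where 198 of all genes did (1.59%). At so small a share of all genes, 0 of 46 says little by itself. The DESeq2 and limma-voom fits also called 0 of 46. Libraries of the same number in the AB groups deviated from their group means together, most clearly those numbered 2 and 4. With the number as a block in a fit of these 2 groups alone, 0 of 45 genes passed the adjusted threshold. Of the 45, 0 had an unadjusted p under 0.05, where 457 of the 11732 genes tested did (3.9%). The smallest p was then 0.0633, again for Eif1 (log2 difference 0.06, adjusted p = 0.9973, edgeR). Without the block the smallest p was 0.182, for Eif1 (adjusted p = 0.9996), which was also the adjusted p of every panel gene. The approximate 95% interval of the difference lay within 1.25-fold for 43 of 46 genes and within 1.5-fold for 45. The 3 outside 1.25-fold were Eif2b3, Eif5a2 and Eif3j2, which had low counts. Smaller differences than these intervals could not be seen. The log2 difference was -0.04 (SE 0.06) for Eif1a, 0.01 (SE 0.06) for Eif6, 0.01 (SE 0.04) for Eif4g1, -0.02 (SE 0.08) for Eif3a and 0.05 (SE 0.09) for Eif3f.

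**Figure D5:**
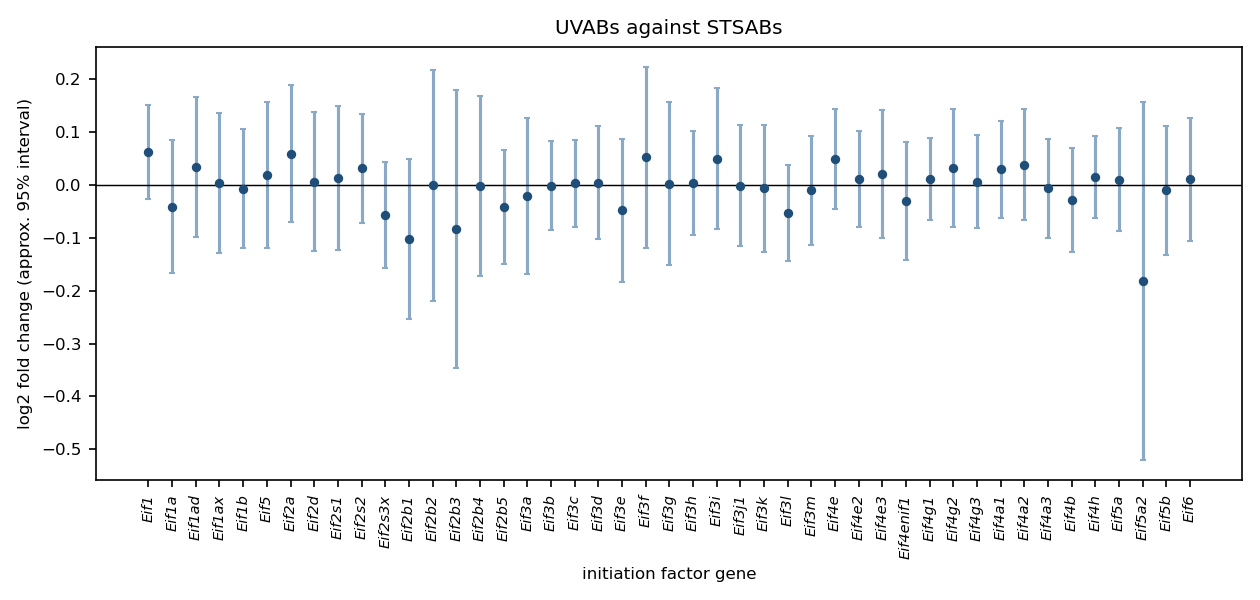
Points give the log2 fold change in UVABs against STSABs for 45 tested initiation factor genes by role, and bars the approximate 95% interval. Every interval includes 0, and the widest belong to Eif5a2 and Eif2b3.

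Compared with Con, 14 of 46 genes rose (30.4%, against 40.0% of all genes tested) and 26 fell (56.5%, against 42.6%) in STSABs, and 15 rose (32.6%, against 40.2%) and 25 fell (54.3%, against 42.4%) in UVABs. These comparisons share the 3 Con libraries with LPS against Con and depended on the scaling in the same manner. With library totals alone 2 of the 46 genes were higher and 41 lower in each. Of all 12465 genes tested 2510 were then higher and 8511 lower in STSABs, and 2504 and 8523 in UVABs. Eif6 and Eif1a showed the largest rises, 1.07 (SE 0.07, adjusted p = 4.41e-12) and 0.92 (SE 0.08, adjusted p = 2.21e-10) in STSABs and 1.08 (SE 0.07, adjusted p = 3.68e-12) and 0.88 (SE 0.08, adjusted p = 4.73e-10) in UVABs on the log2 scale, and were higher under all 4 scalings. Eif2b3 and Eif4b showed the largest falls, of 1.92 (SE 0.12) and 1.22 (SE 0.06) in STSABs and 2.00 (SE 0.12) and 1.25 (SE 0.06) in UVABs, again under all 4 scalings.

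Regulators of initiation and other translation genes were followed with 42 genes in 6 lists, all of them tested. In LPS against Con 14 rose (33.3%, against 40.0% of all genes tested) and 20 fell (47.6%, against 43.0%) with TMM, shares near those of all genes. Against LPS 13 rose (31%, against 28.4%) and 18 fell (42.9%, against 29.0%) in STSABs, and 14 rose (33.3%, against 28.6%) and 18 fell (42.9%, against 28.8%) in UVABs. Eif2ak2, the gene of PKR, rose by 3.46 (log2, SE 0.07, adjusted p = 4.43e-21) in LPS against Con, from 49.8 to 55.9 CPM in Con to 529 to 615 in LPS, and fell by 0.28 in each AB group against LPS (SE 0.05 in each). Ppp1r15a (GADD34), which directs dephosphorylation of eIF2, rose by 1.49 (SE 0.08) in LPS against Con and rose further against LPS in STSABs (0.54, SE 0.06) and UVABs (0.53, SE 0.06). Of the 6 eIF2 kinase and phosphatase genes 3 rose and 3 fell in LPS against Con with TMM. Larp1 and Mtor, of the mTORC1 branch that represses or drives translation of pyrimidine-start mRNAs, rose by 2.38 (SE 0.06) and 1.52 (SE 0.05).

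Eif4ebp1 encodes the inhibitor that keeps eIF4E from eIF4G. It was at 52.9, 55.9 and 55.6 CPM in Con, 11.1, 11.8, 11.6, 9.97 and 10.3 in LPS, 38.4, 41.7, 35.6, 31.5 and 31.9 with STSABs and 36.0, 45.9, 34.0, 30.3 and 32.1 with UVABs. The AB libraries lay between LPS and Con without overlap. Eif4ebp1 fell by 2.32 on the log2 scale (SE 0.11, adjusted p = 7.77e-15) in LPS against Con and rose by 1.71 (SE 0.10, adjusted p = 1.83e-11) in STSABs and 1.70 (SE 0.10, adjusted p = 1.94e-11) in UVABs against LPS. The kinase genes acting on eIF4E differed: Mknk1 fell by 1.44 (SE 0.05) in LPS against Con and differed by 0.03 and 0.04 from LPS in the AB groups, not past the threshold, whereas Mknk2 rose by 0.92 (SE 0.08) in STSABs and 0.96 (SE 0.08) in UVABs. The fall of Mknk2 in LPS against Con (-0.35, SE 0.09) did not pass without Con 3 (-0.19). Pdcd4, the gene of an eIF4A inhibitor, was lower in LPS than in Con (-0.21, SE 0.07) and rose in STSABs (0.37, SE 0.06) and UVABs (0.39, SE 0.06) against LPS. Of 7 further initiation and recycling genes 6 fell and none rose in each AB group against LPS, with Abce1, which splits ribosomes for reuse, falling by 0.97 (SE 0.08) and 0.95 (SE 0.08). Among all genes tested 28.4% rose and 29.0% fell in STSABs against LPS, and 28.6% and 28.8% in UVABs. Of 8 genes listed with elongation 5 rose and 2 fell in each AB group against LPS. Those that rose were the elongation factor genes Eef1a1, Eef1b2, Eef1g and Eef2 and the gene of the eEF2 kinase, Eef2k. Those that fell were not elongation factor genes: Eef1akmt1 encodes a methyltransferase, and Eef1e1, a scaffold of the tRNA synthetase complex, fell by 1.04 (SE 0.08) and 1.25 (SE 0.08).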

How the data were processed

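Polyadenylated RNA of 18 libraries was analysed. Per the submitters' processing notes reads were aligned with HISAT2 to mm39. Of the counting tool, annotation and use of strand nothing is said there. The authors deposited 1 table of estimated counts per gene, of which 6.35% of values were not whole, and these were rounded to whole numbers. Groups came from the sample titles. In edgeR 4.0.16 (R 4.3.3) genes were kept by filterByExpr, scaled with TMM, fitted with all 18 libraries by quasi-likelihood with group means, and tested in 6 comparisons with Benjamini-Hochberg adjustment over 12465 genes and a threshold of 0.05. Intervals are 1.96 SE. The fit was tested on simulated data.

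The gene set and lists were chosen with earlier results of these data known. Genes named with full statistics were a panel of 15, plus the 4 largest called changes in each direction of genes reaching a mean of 5 CPM in either group (2 against Con for AB groups), and for regulators up to 3 with the smallest adjusted p plus 6 fixed genes. Alternatives were 3 other scalings, DESeq2 1.42.0, limma-voom (limma 3.58.1), 2 filters, subsets of libraries, replicate terms and each library left out. Promoter sequences are RefSeq's on GRCm38.p6, not the build of the alignment, and were matched by symbol. Over all 153 pairs of libraries the chi-square of the counts per gene was at least 1.54, above the 1 of sampling noise alone. The closest pair, STSABs 4 and UVABs 4, spans the AB groups, and the closest within a group was LPS 2 and LPS 3 (2.3). Each library was counted as its own sample. The value cannot show separate cultures or animals, since separate libraries of 1 RNA can also exceed 1. The labels' replicate numbers were taken to pair STSABs with UVABs, since the deviations from the group means of all 5 same-numbered pairs correlated at 0.116 to 0.54 and 8 of these 10 libraries correlated best with their own number. Pairs of different numbers in these groups correlated at -0.346 to 0.154. Only number 2 (0.54) and number 4 (0.288) lay above all of those. This pairing comes from the data, and the labels state none. A fit of these groups with the number as a block was added after seeing the data. Sequenced reads carry no molecular identifiers in the sources used here, so counts are not independent molecules.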

Additional observations from a re-analysis of the deposited data

Results flagged for a closer look

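In 13 of 138 sets of 5 libraries (46 genes in LPS, STSABs and UVABs) the highest or lowest library lay apart from the other 4, with a gap over 0.71 of the whole range (Dixon's limit for 5 samples). Chance gives this in about 5% of sets. Of the 13, 6 were in STSABs 2 or UVABs 2, which also stood apart over all genes, and 4 in LPS 1.

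In STSABs 2, Eif2b2 was at 96.2 CPM (others 64.1 to 71.7), Eif2b4 at 13.3 (9.99 to 10.4) and Eif4a2 at 109 (128 to 133). In UVABs 2, Eif2b2 was at 96.8 CPM (others 64.5 to 68.3), Eif1ax at 64.3 (50.3 to 53.8) and Eif2s3x at 145 (162 to 169). In LPS 1, Eif2s2 was at 119.6 CPM (others 97.2 to 102.6), Eif3e at 142 (109 to 115), Eif3h at 231 (200.2 to 208) and Eif3m at 79.4 (68.8 to 71.8). The rest were Eif1 at 317 CPM in LPS 2 (others 297 to 302), Eif2b5 at 28.6 in UVABs 1 (32.1 to 33.2) and Eif4e3 at 20.4 in STSABs 3 (21.3 to 21.5). What set these libraries apart was not tested.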

How the results depend on the processing

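Over 31 alternatives, 18 of which left out 1 library each and 1 of which, the block of the AB groups alone, was chosen after seeing the data, the comparisons with LPS were stable and those with Con depended on the scaling; the cause was not tested. In LPS against Con upper-quartile scaling left 9 genes higher, and library totals alone 2 higher and 38 lower. In STSABs and in UVABs against Con it was 8 higher with upper-quartile scaling, and 2 higher and 41 lower with library totals. In these 2 comparisons 3822 and 3836 of all genes tested were higher with upper-quartile scaling. With library totals 2510 and 2504 of all genes were higher, and 8511 and 8523 lower. Over all genes tested 4991 were higher and 5361 lower in LPS against Con with TMM, 3754 and 6665 with upper-quartile scaling and 2365 and 8802 with library totals. In LPS against Con the sign turned with upper-quartile scaling for Eif1 (-0.12), Eif2b5 (-0.17), Eif2s3x (-0.26), Eif3b (-0.27), Eif4a1 (-0.0897), Eif4a3 (-0.25), Eif4e3 (-0.0650) and Eif4h (-0.0409). With library totals it turned for Eif1 (-0.58), Eif1ax (-0.44), Eif2b2 (-0.69), Eif2b5 (-0.63), Eif2s3x (-0.73), Eif3b (-0.73), Eif4a1 (-0.56), Eif4a3 (-0.72), Eif4e3 (-0.53), Eif4enif1 (-0.19), Eif4g1 (-0.25), Eif4h (-0.51), Eif5a (-0.00086) and Eif5b (-0.38). A change of sign between values past the threshold in neither fit was not counted. The call and direction held under every alternative for 23 of 46 genes in LPS against Con, 40 in STSABs and 38 in UVABs against LPS, and 46 in UVABs against STSABs. Against LPS no sign turned, and leaving out any 1 library kept every count within 1.5 times its value. Without both STSABs 2 and UVABs 2 the counts were 13 higher and 24 lower in STSABs and 13 and 25 in UVABs against LPS. Genes under about 10 CPM, such as Eif2b3 and Eif5a2, are limited by depth.

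Between all other groups than STSABs and UVABs the replicate numbers do not pair the libraries: over 19 pairs of the same number the correlation of deviations ran from -0.0907 to 0.113, with 1 over 0.1. Blocking STSABs and UVABs by number in a fit of their own called 0 genes higher and 0 lower, as without the block. With a replicate block 15 genes were higher and 22 lower in LPS against Con, 12 and 24 in STSABs and 13 and 25 in UVABs against LPS, 0 in UVABs against STSABs, 16 and 24 in STSABs and 16 and 25 in UVABs against Con.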
